A study of Mus musculus with 2 samples.

Results

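The angiopoietins, the angiopoietin-like genes and the TIE receptor genes were examined in whole mammary gland of the mouse. The 10 members were taken by gene symbol: the ligand genes Angpt1, Angpt2 and Angpt4, the receptor genes Tek and Tie1, and the angiopoietin-like genes Angptl1, Angptl2, Angptl4, Angptl6 and Angptl7. All 10 were found among the 43346 genes of the deposited gene tables, and they had 23 of the 103639 transcripts in the transcript tables. The RNA was poly(A)-selected and came from 2 libraries of 1 group, labelled as biological replicates 1 and 2. Tissue came from littermates of the inbred strain C57BL/6J at 8 weeks of age. Males and females were pooled, so it is not female gland alone. The labels name no treatment, no mutant allele and no contrast, and reproductive state is not given in the sources used here. Differences between the replicates were therefore described with counting intervals, and no p-value was computed. Paired values are given for replicate 1 and then replicate 2, and n is 2 libraries throughout.

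Angiopoietins are secreted ligands of TIE2, the endothelial receptor tyrosine kinase encoded by Tek. ANGPT1, made largely by cells around vessels, activates TIE2 and keeps vessels quiescent, whereas ANGPT2, made by endothelium, can oppose ANGPT1 where vessels are remodelled. TIE1 is a related receptor that modulates TIE2 signalling. The angiopoietin-like proteins share the coiled-coil and fibrinogen-like architecture of angiopoietins but do not signal through TIE2. ANGPTL4, the best known of them in fat, inhibits lipoprotein lipase and so limits the uptake of fatty acids from blood.

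The replicates differed in more than depth. Total expected counts over genes were 56323489 and 42400470 fragments. Mitochondrial genes took 10.4% and 2.18% of these counts. The 5 skeletal muscle markers summed to 26707 and 12.0 TPM (transcripts scaled for length and to a fixed total per library), the 3 skin keratinocyte markers to 93.7 and 4.43 TPM, and the 3 brown adipocyte markers to 1593 and 521 TPM. None of the markers in these 3 lists was at 0 in both libraries. The labelled tissue carried epithelial and adipocyte markers in both libraries: the 3 luminal keratin genes summed to 692 and 1190 TPM, the 3 basal markers to 156 and 144 TPM and the 5 white adipocyte markers to 4938 and 6227 TPM.

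Among the 10 members, which do not include Angptl8, the angiopoietin-like genes Angptl2 and Angptl4 dominated. The receptor gene Tie1 was above the 3 ligand genes in both libraries. Angptl2 and Angptl4 together held 82.8% and 80.1% of the summed TPM of the 10 members, which was 389 and 464 TPM. A total of 7 members reached 1 TPM in both libraries, against 31.0% of all genes and 58.3% of protein-coding genes. The exceptions, Angptl1, Angpt4 and Angpt1, each fell below 1 TPM in at least 1 library. Every member was above 3 fragments, taken as the floor of detection, in both libraries. In whole tissue, fewer cells of a type and less RNA per cell cannot be told apart.

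Angptl2 (chromosome 2, 33216069 to 33247717, plus strand, mm10), which encodes a secreted glycoprotein linked to inflammation of adipose tissue, was the highest member. It stood at 219 and 205 TPM, a mean of 212 ± 9.73 TPM (SD), from 29409 and 19565 fragments. It ranked 513 and 690 among all genes by TPM. Angptl4 (chromosome 17, 33773750 to 33781830, minus strand) stood at 103 and 166 TPM, a mean of 135 ± 44.5 TPM, from 7826 and 8723 fragments. The lower Angptl2 library was above the higher Angptl4 library, so their ranges did not overlap. Within a library and per transcript length, Angptl2 exceeded Angptl4 by 2.12-fold (95% counting interval 2.07 to 2.17) in replicate 1 and by 1.23-fold (1.20 to 1.27) in replicate 2.

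Both receptor genes were expressed, Tie1 above Tek. Tie1 (chromosome 4, 118471191 to 118490061, minus strand) stood at 36.3 and 69.0 TPM, a mean of 52.6 ± 23.1 TPM. Tek (chromosome 4, 94739289 to 94874976, plus strand) stood at 12.5 and 6.43 TPM, a mean of 9.48 ± 4.31 TPM. The receptors moved in opposite directions between the libraries: Tie1 was higher in replicate 2 and Tek in replicate 1. Tie1 therefore exceeded Tek per length by 2.89-fold (2.76 to 3.04) in replicate 1 and by 10.7-fold (9.97 to 11.5) in replicate 2.

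Among the ligands, Angpt2 was the highest. Angpt2 (chromosome 8, 18690263 to 18741562, minus strand) stood at 6.58 and 6.08 TPM, a mean of 6.33 ± 0.35 TPM, the smallest spread relative to its mean of the 3 ligands. Angpt1 (chromosome 15, 42424723 to 42676977, minus strand) stood at 1.10 and 0.46 TPM, from 192 and 57 fragments. Angpt4 (chromosome 2, 151911210 to 151945337, plus strand), a further TIE2 ligand, stood at 0.94 and 0.64 TPM, from 86 and 42 fragments. Angpt2 was thus above Angpt1 in both libraries, by 5.98-fold (5.11 to 7.02) and 13.2-fold (10.1 to 17.7) per length. Angpt1 and Angpt4 overlapped in range and could not be ordered. Tek was above Angpt2 in replicate 1, but in replicate 2 their deposited bounds overlapped, at 6.02 to 7.65 TPM for Tek and 5.61 to 6.69 TPM for Angpt2.

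The other angiopoietin-like genes were low. Angptl6 (chromosome 9, 20873808 to 20879727, minus strand), which encodes a secreted factor known mainly from liver and energy metabolism, stood at 5.35 and 7.69 TPM. Angptl1 (chromosome 1, 156838562 to 156861078, plus strand), which encodes a factor known to restrain endothelial growth, stood at 3.06 and 0.74 TPM. Angptl7 (chromosome 4, 148495183 to 148500460, minus strand), best known from the eye, stood at 1.18 and 1.07 TPM, a mean of 1.13 ± 0.078 TPM. In the order of mean TPM, 4 pairs of neighbours overlapped in range and were not separated: Tek and Angptl6, Angptl6 and Angpt2, Angptl1 and Angptl7, and Angpt4 and Angpt1.

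**Figure D1:**
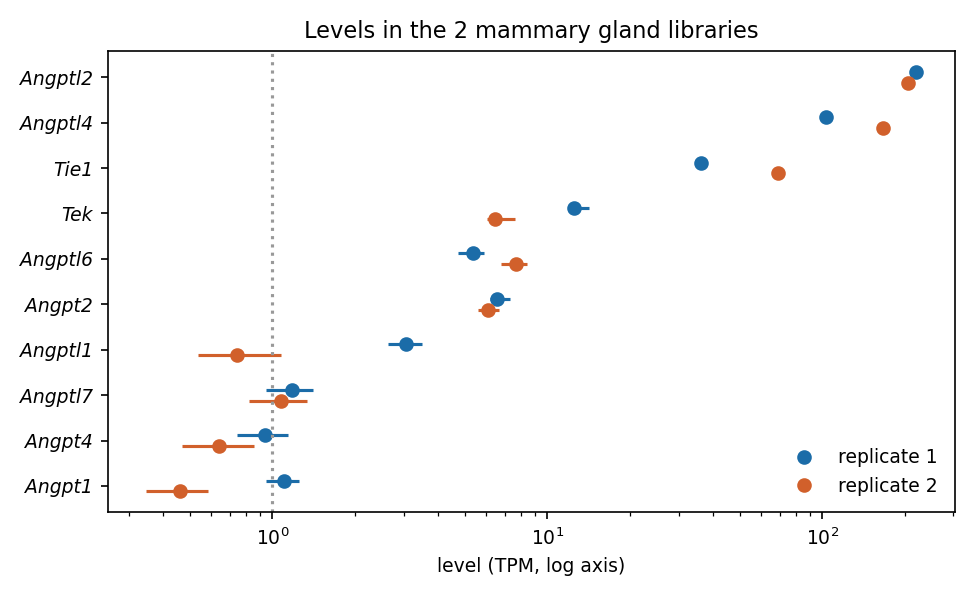
Level of each member in TPM (log axis) in replicate 1 (blue) and replicate 2 (orange), with the deposited interval around the posterior mean TPM as a bar and 1 TPM as a dotted line. Angptl2, Angptl4 and Tie1 stand above 30 TPM in both libraries, and Angptl1, Angpt4 and Angpt1 lie at or below 1 TPM in at least 1 of them.

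Several members share their locus with another gene. Per GENCODE M21 (a later release than the one behind the tables, on the same build), Angpt2 lies inside Mcph1, Angptl1 inside Ralgps2, Angptl2 inside Ralgps1 and Angptl7 inside Mtor, each time on the opposite strand and with 0 exon bases in common. These enclosing genes stood at 3.30 and 1.90 TPM (Mcph1), 5.50 and 13.7 TPM (Ralgps2), 3.52 and 5.04 TPM (Ralgps1) and 18.4 and 19.6 TPM (Mtor). Angptl2 was far above the gene that encloses it, whereas Angptl7 was far below Mtor. Exon sequence was shared on the opposite strand in 3 cases. Angptl6 shares 265 exon bases with A230050P20Rik, which stood at 62.9 and 136 TPM. Angpt1 shares 737 with the antisense gene Gm17473, listed with 5 and 1 fragments, and Angptl1 shares 465 with Gm37802, listed with 33 and 19 fragments. The libraries are labelled as stranded, but whether the quantification used the strand is not given in the sources used here, and without strand the reads of such pairs cannot be told apart. The level of Angptl6 is the most exposed to this, since its partner was over 10 times as high in both libraries.

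For transcripts, the tables give the percent of a gene's TPM assigned to each. Of the 10 members, 4 were listed with 1 transcript and 6 with more. The most abundant transcript was the same in both libraries for all 6, against 73.7% of the 11577 genes with more than 1 transcript and over 3 fragments in each library. For Angpt2 the second transcript was listed at 0%, and Angptl2 was nearly a single transcript, with 96.5% and 96.3% assigned to the full-length protein-coding form. Angptl4, Tie1, Tek and Angptl1 were split, and the sequences below, read from the GENCODE M21 transcripts on mm10, show where their forms differ. Capitals mark bases held by that form and absent from the form it is set against.

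Most Angptl4 RNA was assigned to a transcript that GENCODE M21 annotates as a target of nonsense-mediated decay, the pathway that degrades mRNAs with an early stop codon. This transcript, ENSMUST00000173869, took 89.8% and 93.7% of Angptl4, at 92.8 and 156 TPM. The protein-coding transcript, ENSMUST00000002360, took 9.62% and 5.75%, at 9.95 and 9.56 TPM. Inside their common extent the forms differ by 4 bases at the start of exon 3, at chr17:33780644-33780647, shown here with 30 bases on either side.
Angptl4 protein-coding: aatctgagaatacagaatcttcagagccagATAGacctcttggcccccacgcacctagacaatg
Angptl4 decay-annotated: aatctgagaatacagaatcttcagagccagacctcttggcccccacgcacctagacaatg
Without the 4 bases the annotated reading frame has 154 codons in place of 410. The forms also differ at their ends: in M21 the protein-coding transcript has 1445 further bases beyond the ends of the other and 4 inside it. In the deposited tables it is listed at 3053 bases, against 3308 in M21, and the decay-annotated one at 1859 bases, the same as in M21. The split between the forms is thus a split by transcript ends as well as by the 4 bases, and how many fragments crossed the 4-base difference was not tested. By expected counts scaled to total counts, the log2 ratio of replicate 2 over replicate 1 was 0.67 (0.62 to 0.71) for the decay-annotated form. For the protein-coding form it was -0.14 (-0.27 to -0.0092), so the higher Angptl4 level of replicate 2 was assigned to the decay-annotated form. Both intervals leave out the error of assigning reads to transcripts.

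Tek was split between transcripts that differ by a cassette exon and at their ends. Exon 4 of the most abundant transcript, ENSMUST00000071168, lies at chr4:94799127-94799279, has 153 bases (51 codons) and falls in the coding part that precedes the kinase. The transcript without it, ENSMUST00000073939, keeps the reading frame, with 1072 codons against 1122. The exon is shown in capitals with 30 bases of its neighbours, beside the junction that skips it.
Tek with exon 4: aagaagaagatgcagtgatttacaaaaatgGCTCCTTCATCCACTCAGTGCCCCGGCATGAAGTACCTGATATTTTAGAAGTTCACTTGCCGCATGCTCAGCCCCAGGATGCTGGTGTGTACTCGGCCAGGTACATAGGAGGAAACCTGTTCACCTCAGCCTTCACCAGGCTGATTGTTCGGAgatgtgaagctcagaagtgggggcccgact
Tek without exon 4: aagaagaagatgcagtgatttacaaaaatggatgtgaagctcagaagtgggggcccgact
Transcripts with the exon took 67.2% and 59.8% of Tek and the skipping transcript 32.8% and 40.2%. In TPM the skipping form stood at 4.11 and 2.59, with deposited bounds of 3.11 to 4.74 and 1.68 to 3.01, which do not overlap. The most abundant form stood at 7.86 and 3.71 TPM, so both forms were lower in replicate 2. In M21 the skipping form holds 526 bases that the most abundant form lacks, nearly all at the transcript ends. The split is thus one by transcript ends as well as by the exon, and how many fragments crossed the exon's junctions was not tested. These 2 forms also differ by 3 bases at the end of a later exon (chr4:94851875-94851877), which the skipping form holds.
Tek skipping form at the later exon: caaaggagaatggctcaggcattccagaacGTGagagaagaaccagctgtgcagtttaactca

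Tie1 was split between a full transcript and a shortened one without an annotated reading frame. The full protein-coding transcript, ENSMUST00000047421 (23 exons, 1134 codons), took 72.8% and 60.0% of Tie1, at 26.4 and 41.4 TPM. The shortened transcript, ENSMUST00000153286, took 22.8% and 37.4%, at 8.28 and 25.8 TPM. It stops after 14 exons: its last exon runs 366 bases past the end of exon 14 of the full form, at chr4:118478032-118478397, into the intron. The sequences show the last 30 bases of exon 14 and what follows, with the first intron bases in capitals.
Tie1 shortened: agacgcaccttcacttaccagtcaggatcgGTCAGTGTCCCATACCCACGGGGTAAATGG
Tie1 full: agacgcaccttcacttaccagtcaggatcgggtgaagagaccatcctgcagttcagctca
Both forms were higher in replicate 2, with log2 count ratios of 1.56 (1.45 to 1.67) for the shortened form and 0.57 (0.51 to 0.63) for the full form. These intervals cover counting error only, not the error of assigning reads to transcripts. For the gene as a whole the log2 TPM ratio of Tie1 was 0.93 and its log2 count ratio 0.77, while its effective length went from 3604 to 3417 bases. A gap in the same direction was present for Angpt2, whose effective length hardly differed, at -0.11 against -0.19.

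Angptl1, the lowest of the split genes, had 78.4% and 65.7% of its TPM on the 5-exon transcript and 21.6% and 34.3% on a 2-exon one that runs 190 bases past exon 2. The shorter form had 31.9 and 8.69 fragments, and its deposited bounds of 0.217 to 1.15 TPM and 0.042 to 0.60 TPM overlap. These bounds are on TPM, so whether the shares of Angptl1 differed between the libraries was not tested.

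**Figure D2:**
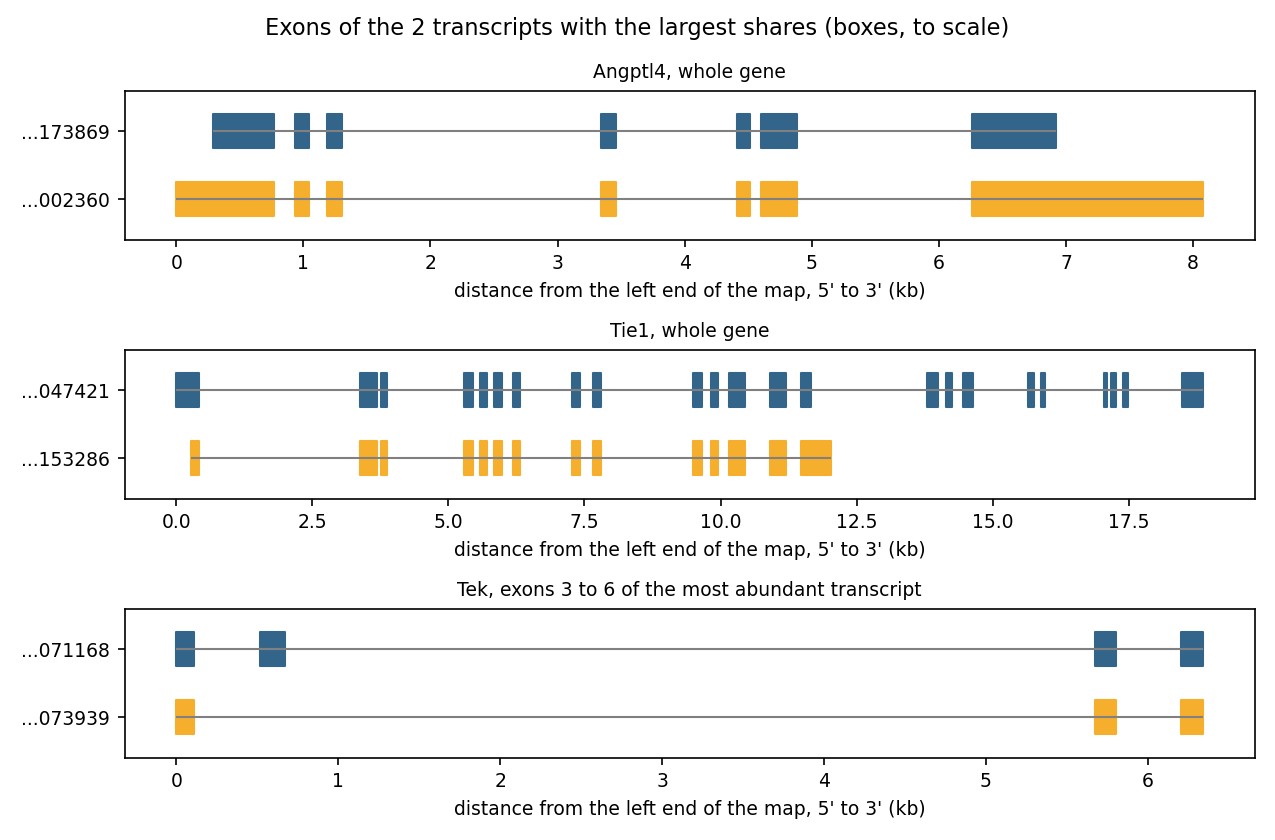
Exons (boxes) of the 2 transcripts with the largest shares of Angptl4, Tie1 and, for exons 3 to 6, Tek, against distance in kb from the left end of each map. The Angptl4 forms differ mainly at their ends, the shortened Tie1 form stops after exon 14 of the full form, and the Tek forms differ by exon 4, present in the upper form only.

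**Figure D3:**
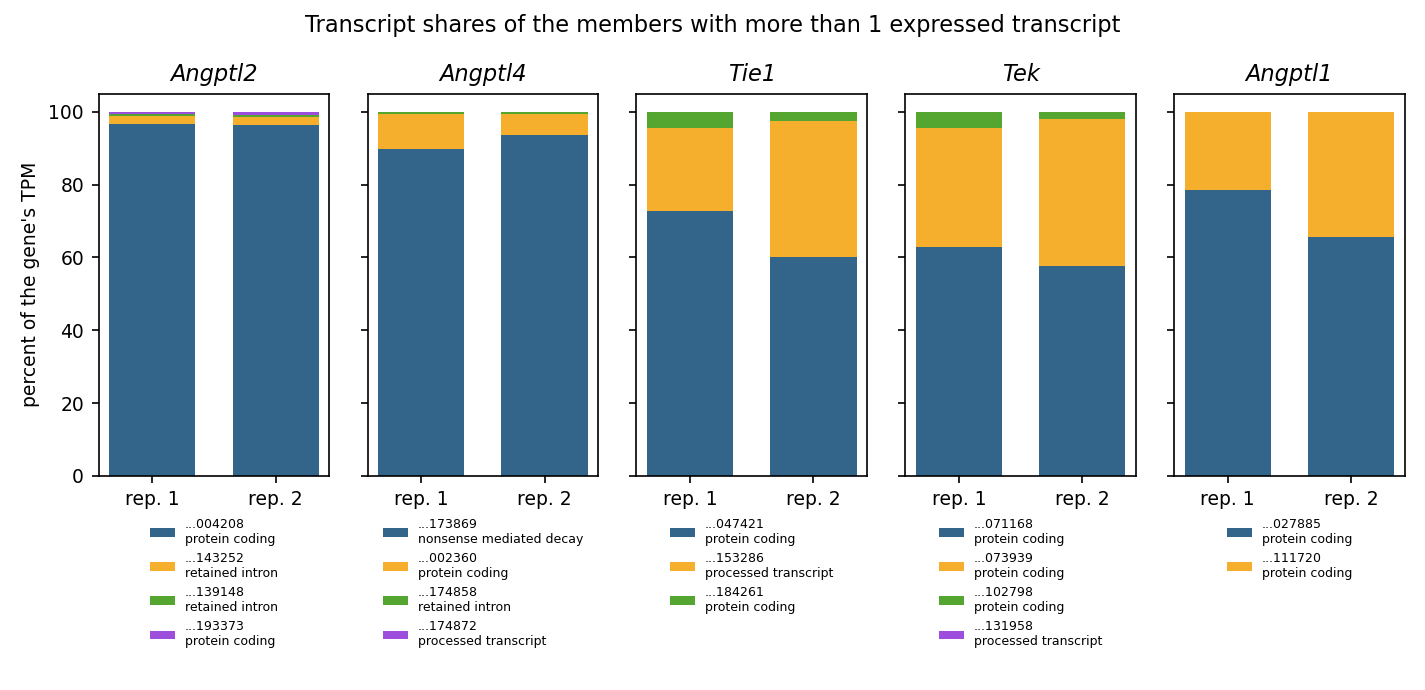
Percent of each gene's TPM assigned to each transcript in replicates 1 and 2, with transcripts named by the last 6 digits of their identifier and their GENCODE M21 type. Angptl2 is nearly 1 form, and the decay-annotated form takes 89.8% and 93.7% of Angptl4. The second form of Tie1, Tek and Angptl1 has a larger share in replicate 2, but whether any of these shares differ beyond the error of assigning reads was not tested.

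The replicates were compared gene by gene from counts. The count ratio of replicate 2 over replicate 1 was scaled by total counts and given a 95% Clopper-Pearson interval, and a gene lay beyond 2-fold where the whole interval did. Of the 8 members with a mean of at least 1 TPM, 1 lay beyond 2-fold, against 18.2% of the 14510 genes at that level. It was Angptl1, higher in replicate 1, the direction in which 9.43% of those genes lay. Its 284 and 45 fragments gave a log2 count ratio of -2.25 (-2.74 to -1.79). Angptl1 passed the expression minimum only through replicate 1. A count of 1 among 8 is no more than the share of all genes gives. On log2(TPM + 1) the count was again 1, where 21.8% of genes differed beyond 2-fold. At a 1.5-fold limit it was 3, with Tek and Tie1 added, where 39.8% of genes lay beyond.

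The receptors and ligands lay within or across the 2-fold limit. Tek, at 2220 and 815 fragments, had a log2 count ratio of -1.04 (-1.15 to -0.92), an interval that spans 2-fold. Tie1, at 5636 and 7242 fragments, had one of 0.77 (0.72 to 0.82), higher in replicate 2 but short of 2-fold. Angpt1 had a log2 count ratio of -1.34 (-1.80 to -0.91) and Angpt4 of -0.62 (-1.19 to -0.076), both from few fragments. Angpt2 differed by less, at -0.19 (-0.34 to -0.047). Scaled by total counts, both low ligands, Angpt2 and Tek were thus lower in replicate 2, and Tie1 alone of the receptor system higher. Under some other scalings, given in the closing section, the intervals of Angpt2 and Angpt4 included 0.

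Among the angiopoietin-like genes, Angptl4 was higher in replicate 2 with a log2 count ratio of 0.57 (0.52 to 0.61). Angptl6 also lay higher, at 0.44 (0.21 to 0.67). Angptl2 was slightly lower in replicate 2, at -0.18 (-0.20 to -0.15). Angptl7 could not be given a direction, since its interval of -0.70 to 0.25 includes 0. In all, 3 members had a ratio above 0 and 7 below, and the median of all 14510 genes was -0.064.

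These differences moved with base composition. Across 13217 protein-coding genes the log2 count ratio and the GC content of the transcripts had a Spearman rho of 0.60, a description across genes that share the same 2 libraries. The 5 members lowest in GC, Angpt1 (39.3%), Angptl1 (44.4%), Angpt2 (47.2%), Tek (47.2%) and Angptl7 (50.1%), all had fewer scaled counts in replicate 2. Of the other 5, Angptl2 (54.2%), Angptl4 (56.0%), Angpt4 (56.3%), Tie1 (58.0%) and Angptl6 (63.1%), 3 had more. When the median difference at each GC content was removed, the log2 count ratio of Tie1 went to 0.19 (0.14 to 0.24) and that of Tek to -0.54 (-0.66 to -0.42). The gap between the receptors, 1.81 in log2 counts, was then 0.73. The gap between Angpt2 and Angpt1 went from 1.15 to 0.56, and the interval of Angpt1, -0.71 to 0.18, then included 0. Angptl1 kept a whole interval beyond 2-fold, at -1.51 (-2.00 to -1.05), where 10.7% of genes did so.

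Angptl4 went to 0.25 (0.21 to 0.30) with the trend removed, and Angptl2 to -0.28 (-0.30 to -0.25). Angpt2, at 0.30 (0.16 to 0.45), and Angptl6, at -0.73 (-0.96 to -0.51), changed direction. Angptl6 and Angpt1 lie beyond the medians of the outermost GC bins, where the correction was held at its end value. Angpt4 moved away from 0, to -0.98 (-1.55 to -0.43). The members whose interval stayed on the same side of 0 with and without the trend were Angptl1, Tek, Angpt4 and Angptl2, lower in replicate 2, and Tie1 and Angptl4, higher.

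**Figure D4:**
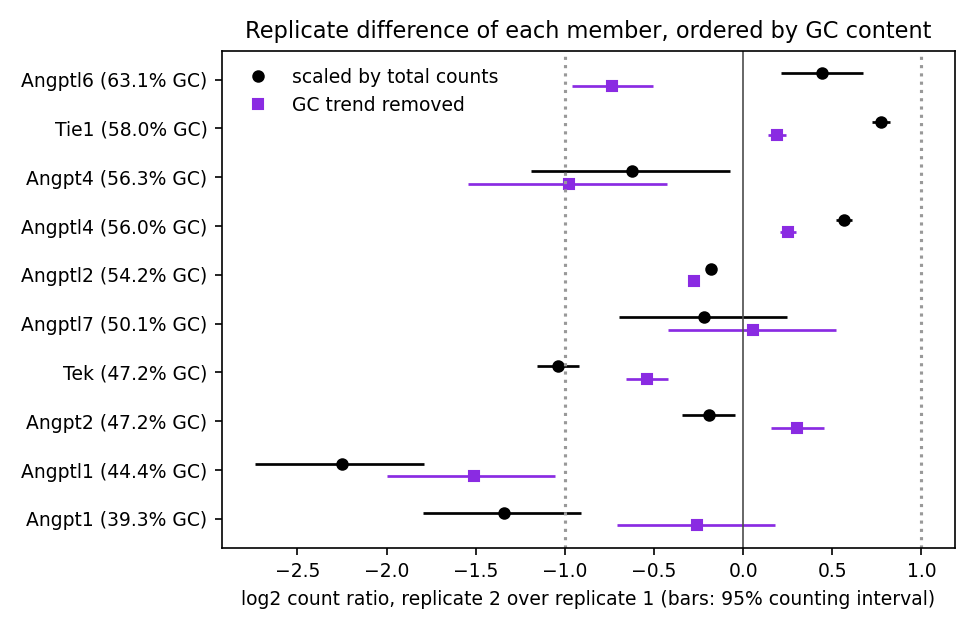
Log2 count ratio of replicate 2 over replicate 1 for each member, ordered by GC content, scaled by total counts (black) and with the GC trend removed (purple), with 95% counting intervals as bars and 2-fold as dotted lines. Angptl1 is the member whose interval lies wholly beyond 2-fold both ways, at -2.25 and -1.51, and the purple points of Tek and Tie1 stand closer together than the black ones.

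**Figure D5:**
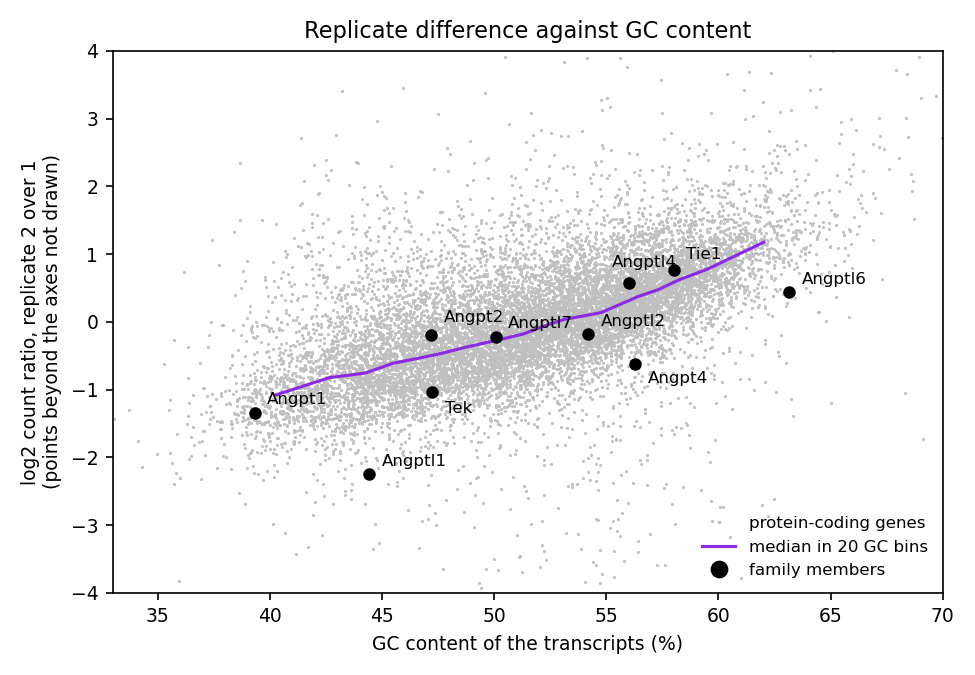
Log2 count ratio of replicate 2 over replicate 1 against GC content in percent for 13217 protein-coding genes (grey), the median in 20 GC bins (line) and the family members (black). Angptl7 and Tie1 lie close to the line, whereas Angptl1, Angpt4 and Tek lie furthest below it. Angpt1 and Angptl6 lie beyond the ends of the line.

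Cell type markers moved in several ways beside these values. The 10 blood endothelial markers, the cells that carry TIE receptors, summed to 879 and 987 TPM, and none was at 0. They had a median log2 count ratio of 0.077, with 6 higher and 4 lower in replicate 2. Among them Emcn was beyond 2-fold lower, at 21.9 and 9.52 TPM, and Cldn5 beyond 2-fold higher, at 50.4 and 124 TPM. With the GC trend removed neither call remained, and the median was -0.18. Tek and Tie1 therefore differed in direction within a set of endothelial genes that itself lay on both sides of 0. The 6 lymphatic endothelial markers summed to 264 and 338 TPM, with a median of -0.10.

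The 6 pericyte markers, from cells known as a source of Angpt1, summed to 185 and 202 TPM with a median of -0.24, and 2 of them, Rgs5 and Abcc9, were beyond 2-fold lower in replicate 2, where 9.43% of all genes were. With the GC trend removed neither was, at -0.45 for Rgs5 and -0.96 for Abcc9. The 5 fibroblast markers summed to 1790 and 1353 TPM with a median of -0.82, or -0.28 with the trend removed. The call of Dcn, the fibroblast marker beyond 2-fold lower, was then lost. The brown adipocyte list had a median of -1.75 and the skeletal muscle list of -11.5, with all 5 muscle markers beyond 2-fold lower in replicate 2. The part of these cell types in the lower Angptl1, Tek and Angpt1 of replicate 2 was not tested.

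The TIE signalling partners, 10 in number, were all at 1 TPM or more in both libraries. By counts 2 were beyond 2-fold higher in replicate 2 and 0 lower, where 8.73% of genes lay beyond 2-fold higher, and their median was 0.76, or 0.17 with the GC trend removed. The 2 were Klf2, a transcription factor gene of quiescent endothelium, at 30.2 and 264 TPM, and Foxo1, at 16.1 and 37.3 TPM. Their log2 count ratios were 3.04 (2.98 to 3.11) for Klf2 and 1.14 (1.09 to 1.18) for Foxo1. Foxo1, named after its values were seen, encodes a transcription factor that AKT restrains and that is known to drive Angpt2. Both stayed beyond 2-fold with the GC trend removed, at 1.94 and 1.53. Akt1, the kinase gene downstream of TIE2, stood at 90.1 and 153 TPM, the nitric oxide synthase gene Nos3 at 28.8 and 53.7 TPM, the PI3-kinase subunit gene Pik3r1 at 47.6 and 30.6 TPM and the adaptor gene Dok2 at 22.7 and 38.2 TPM. Several of these genes are also expressed outside endothelium.

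The lipoprotein lipase system, on which ANGPTL4 acts, was abundant. All 8 genes passed 1 TPM in both libraries, with a median log2 count ratio of 0.28, or 0.026 with the GC trend removed. Lpl, the lipase gene itself, stood at 842 and 716 TPM, and Gpihbp1, whose product holds the lipase on capillary endothelium, at 236 and 196 TPM. Angptl8, an angiopoietin-like partner without the fibrinogen-like domain and not among the 10 members, stood at 98.7 and 210 TPM. It was below Angptl4 and Angptl2 in replicate 1 (103 and 219 TPM) and above both in replicate 2 (166 and 205 TPM), there only narrowly above Angptl2. The log2 count ratio of Angptl8 was 1.00 (0.93 to 1.07), or 0.057 with the GC trend removed. Furin, a convertase gene, was beyond 2-fold higher in replicate 2, at 55.2 and 119 TPM, but lay at 0.28 with the trend removed. Apoc1 stood at 35.2 and 53.3 TPM. Lpl and Gpihbp1 thus had fewer scaled counts in replicate 2, at log2 ratios of -0.50 and -0.38, where Angptl4 had more, at 0.57. With the GC trend removed Lpl lay at -0.15, Gpihbp1 at -0.68 and Angptl4 at 0.25.

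Of the 7 genes fixed as known regulators of Angptl4, all passed 1 TPM in both libraries, with a median log2 count ratio of 0.40, or -0.17 with the GC trend removed. Pparg, the adipocyte nuclear receptor gene, stood at 139 and 89.8 TPM, and its partner Rxra at 85.8 and 132 TPM. The hypoxia factor genes Epas1 and Hif1a stood at 51.9 and 81.1 TPM and at 18.6 and 48.3 TPM, and Ppard at 29.4 and 47.2 TPM. By counts 1 of the 7 was beyond 2-fold, lower in replicate 2, where 9.43% of genes were. This was Ppara, named after its values were seen, which fell from 4.53 TPM in replicate 1 to 2.30 TPM in replicate 2. Its log2 count ratio was -1.49 (-1.79 to -1.20), or -1.47 with the trend removed. With the trend removed Hif1a was also beyond 2-fold, in the opposite direction, at 1.36 from 0.63. The receptor genes for angiopoietin-like proteins gave 5 of 6 matches. Itgav, an integrin subunit gene, stood at 17.0 and 105 TPM, the immune receptor gene Pirb at 49.8 and 36.6 TPM, Itgb1 at 43.9 and 24.9 TPM, Itga5 at 18.2 and 17.5 TPM and Itgb3 at 9.43 and 11 TPM. None of these 5 was beyond 2-fold by counts. For Itgav the count ratio of 0.81 in log2 was far smaller than its TPM difference, and that of Hif1a, 0.63, was also smaller than its own.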

How the data were processed

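The authors deposited 1 gene table and 1 transcript table per library, on mm10 with GENCODE M4 per the text notes beside them. Per the file headers they hold expected counts, TPM, FPKM, posterior mean TPM with bounds of unstated level, effective length and, in the transcript tables, each transcript's percent of its gene. Names of the aligner and quantifier were not given in the sources used here. Deposited contigs and splice junctions are on mm9 and were not used here. Entries other than genes held 1.55% and 0.919% of counts and were left out of totals. Symbols, coordinates, types and sequences came from GENCODE M21, which named 42462 genes. Lengths matched M21 for 20 of 23 member transcripts.

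Expected counts were rounded for intervals. GC content was weighted by transcript TPM, and its trend was the median in 20 bins. TMM and size factors came from edgeR 4.0.16 and DESeq2 1.42.0 under R 4.3.3, and the rest from scipy 1.17.1, matplotlib 3.10.9, pandas 2.3.3 and numpy 2.4.6 under Python 3.11.15. On simulated counts for 14510 genes, 98.5% of 200 genes changed 8-fold were called, and 0 unchanged ones. These counts held Poisson counting error only, with no GC trend or other spread between libraries, so the simulation cannot speak to either. Genes named were all members, the 5 highest of each pathway list, overlapping genes, and transcripts with 10% or more of a member. Foxo1, Ppara, the markers Emcn, Cldn5, Rgs5, Abcc9 and Dcn, and the protein-coding Angptl4 transcript fall outside this rule and were chosen after their values were seen. Members and lists were chosen with earlier results of these data known. Intervals cover counting error only, and the labels do not say which animals entered which library. Lilrb4a was not matched and is not analysed here. Alternatives were other units, thresholds, scalings, filters and each replicate left out.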

Additional observations from a re-analysis of the deposited data

How the results depend on the processing

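The number of members at 1 TPM or more in both libraries was 7 and stayed between 6 and 9 over other units, thresholds and each replicate left out (7 to 9). Size factors moved every log2 count ratio by 0.13, and totals without mitochondrial genes and the 5 skeletal muscle markers by -0.17. Other muscle genes stayed in these totals. The number beyond 2-fold was 1, Angptl1, under TMM, size factors, log2(TPM + 1), the GC correction and no filter. It was 2 with the latter totals, where Tek joined Angptl1, and 3 at a 1.5-fold limit, where Tek and Tie1 joined it and 39.8% of genes lay beyond. With those totals, Angpt1, which is under the expression minimum, was also wholly beyond 2-fold, at -1.51. The GC correction reversed 3 log2 differences, to 0.30 for Angpt2, -0.73 for Angptl6 and 0.055 for Angptl7; the cause was not tested. The sign of the estimate held for the other 7 members under all scalings and on log2(TPM + 1), but the interval of Angpt1 with the GC correction (-0.71 to 0.18) and of Angpt4 under size factors, around -0.49, included 0. All 6 members with several transcripts kept their most abundant one under each alternative. No paired analysis was possible because both libraries belong to 1 group. Depth limits Angpt1, Angpt4, Angptl1 and Angptl7, the 4 members with the fewest fragments.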
